A study of Arabidopsis thaliana with 6 samples.

Results

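HEMA2, HEME1, CHLM and PORB are nuclear genes for enzymes of tetrapyrrole and chlorophyll synthesis in Arabidopsis thaliana. The 4 genes were taken by symbol, each represented by its brightest probe set, out of 13286 named genes that the array measures and 8013 that passed the filter on dim signals. Each has 1 named probe set, so the choice of the brightest decided nothing, and all 4 passed the filter. They were chosen by measured values: of the 12 enzyme genes of the pathway that could be tested, they are those called higher in the double mutant than in sicy-192 (adjusted p under 0.05), as were 9.54% of all 14785 tested probe sets. Their values are therefore given as a description and without a test, and the tests below concern the other genes of the pathway. The choice compared the arrays of both mutants, in a fit whose estimate of spread used all 6 arrays, wild type included. The counts of those other genes therefore depend on the choice in part.

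Cotyledons of 3 genotypes in ecotype Col-0 were compared, with 2 arrays each: the double mutant sicy-192 gun1-101, the single mutant sicy-192 and the wild type. All plants were 4 days old and had grown on MS medium with 100 mM sucrose, in days of 16 h at 25 °C with light of 100 µmol/m2/s and nights of 8 h at 22 °C. The sicy-192 mutation is known to raise the activity of an invertase of the plastid and to turn cotyledons yellow on sugar, and GUN1, a plastid protein with pentatricopeptide repeats, takes part in signalling to the nucleus. No gun1-101 single mutant was analysed here, so what gun1-101 does to these genes outside the sicy-192 background was not tested. The mutated genes GUN1 and INV-E have no named probe set in the table used, and the genotypes were not checked against them.

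Chlorophyll and haem share a plastid pathway that starts from glutamate bound to its transfer RNA. Glutamyl-tRNA reductase and the aminomutase that follows it make 5-aminolevulinic acid (ALA), a common path leads from ALA to protoporphyrin IX, and there the pathway divides into a magnesium branch for chlorophyll and an iron branch for haem and bilins. All of these enzymes are encoded in the nucleus. Transcripts of several of them are textbook readouts of plastid-to-nucleus signalling, since they fall when plastids are damaged and fall less in gun mutants.

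The RNA was hybridised to 1-colour Affymetrix arrays, and values are linear signals after scaling each array to a trimmed mean of 500. Log2 differences are on the log2(signal + 16) scale, which understates changes of dim probe sets. Their standard errors (SE) come from a fit over all 6 arrays. That fit draws the spread of each gene towards that of probe sets of similar signal, so an SE is not from the gene alone. The pair of arrays of a genotype correlated at r = 0.983 in the double mutant, 0.979 in sicy-192 and 0.980 in wild type across all tested probe sets, a correlation over features that depend on each other. The bacterial control RNA bioB (3′ end) was read at 313 to 391 on the arrays of replicate 1 and at 51.6 to 68.8 on those of replicate 2. Another probe set for the same end read 271 to 349 on replicate 1 arrays and 21.5 to 28.7 on replicate 2 arrays. Differences are therefore also given within each replicate number. The ratio of 3′ to 5′ signal is a sign of RNA integrity. For the ubiquitin control it was 3.23 and 2.49 in the double mutant, 3.46 and 2.66 in sicy-192, and 4.12 and 3.55 in wild type, where it was highest. With GAPDH as the control, the ratio was 1.79 and 1.42 in the double mutant, 2.30 and 1.55 in sicy-192, and 2.57 and 2.01 in wild type. For the actin control it was 24.4 and 26.1 in the double mutant, 36.8 and 26.0 in sicy-192, and 20.1 and 22.1 in wild type, where it was lowest. The control for 25S ribosomal RNA read 7778 and 8361 in the double mutant, 1378 and 1173 in sicy-192, and 452 and 1763 in wild type. Their part in the results was not tested.

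HEMA2 encodes a glutamyl-tRNA reductase, the enzyme of the first committed step, and is known as the form of non-green tissue and stress, while HEMA1 is that of green tissue. Its signal was 261 and 292 in the double mutant arrays, 146 and 175 in the sicy-192 arrays, and 163 and 165 in the wild-type arrays. The double mutant arrays lay above all 4 others, while the sicy-192 arrays lay on either side of the wild-type arrays. The means were 276 ± 22.1 in the double mutant, 161 ± 21.1 in sicy-192 and 164 ± 1.68 in wild type (SD, n = 2 each). In sicy-192 its log2 difference from wild type was -0.03 ± 0.19 (SE), with -0.15 within replicate 1 arrays and 0.08 within replicate 2 arrays. In the double mutant it was higher by 0.73 ± 0.19 than in sicy-192, a 1.66-fold difference, and by 0.70 ± 0.19 than in wild type. Its double mutant signal was 168% of the wild-type mean. Within replicate 1 and replicate 2 arrays, the double mutant exceeded sicy-192 by 0.78 and 0.69. HEMA2 is the dimmest of the 4 probe sets, so the added 16 matters most here.

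HEME1 encodes a uroporphyrinogen decarboxylase, which acts in the common path before the branch point. The arrays read 2597 and 3098 in the double mutant, 1215 and 1579 in sicy-192, and 4226 and 4914 in wild type. The 3 genotypes did not overlap, with sicy-192 lowest and the double mutant between it and the wild type. Mean signals were 2847 ± 354 in the double mutant, 1397 ± 257 in sicy-192 and 4570.1 ± 487 in wild type (SD, n = 2 each). The log2 difference of sicy-192 from wild type was -1.71 ± 0.17 (SE), which is 3.26-fold lower in sicy-192, with -1.78 and -1.63 within replicate 1 and replicate 2 arrays. Between the double mutant and sicy-192 it was 1.03 ± 0.17, with 1.09 and 0.97 within the same pairs. The double mutant remained below wild type by a log2 difference of -0.68 ± 0.17.

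CHLM encodes the methyltransferase that acts on magnesium protoporphyrin IX in the chlorophyll branch. Signals were 6324 and 5721 in the double mutant, 4434 and 3318 in sicy-192, and 11250.2 and 11192 in wild type. As for HEME1, the genotypes did not overlap and the double mutant lay between sicy-192 and wild type. The wild-type arrays nearly coincided, and the sicy-192 arrays were 0.42 apart on the log2 scale. CHLM averaged 6022 ± 426 in the double mutant, 3876 ± 789 in sicy-192 and 11221 ± 40.9 in wild type (SD, n = 2 each). Its log2 difference from wild type was -0.90 ± 0.17 (SE) in the double mutant and -1.54 ± 0.17 in sicy-192, and the double mutant exceeded sicy-192 by 0.65 ± 0.17. Within replicate 1 and replicate 2 arrays, the double mutant exceeded sicy-192 by 0.51 and 0.78, and sicy-192 differed from wild type by -1.34 and -1.75.

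PORB encodes a light-dependent protochlorophyllide oxidoreductase, which reduces protochlorophyllide to chlorophyllide near the end of the chlorophyll branch. Its arrays gave 1580 and 1527 in the double mutant, 709 and 1054 in sicy-192, and 5075 and 7272 in wild type. The order of the genotypes was that of HEME1 and CHLM, without overlap, and the double mutant lay much nearer to sicy-192 than to wild type. Mean signals were 1554 ± 37.9 in the double mutant, 882 ± 244 in sicy-192 and 6173 ± 1554 in wild type (SD, n = 2 each). PORB had the largest difference of the 4 genes between sicy-192 and wild type, -2.79 ± 0.22 (SE), or 6.91-fold lower in sicy-192, with -2.81 and -2.77 within replicate 1 and replicate 2 arrays. Of the 14785 tested probe sets, 35 had a more negative difference in that comparison, against 202 for HEME1 and 269 for CHLM. The double mutant was higher than sicy-192 by 0.83 ± 0.22 and stood at -1.96 ± 0.22 from wild type. The difference between the double mutant and sicy-192 was 1.14 within replicate 1 arrays and 0.53 within replicate 2 arrays, and it was 0.55 when sicy-192 replicate 1 was left out.

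**Figure D1:**
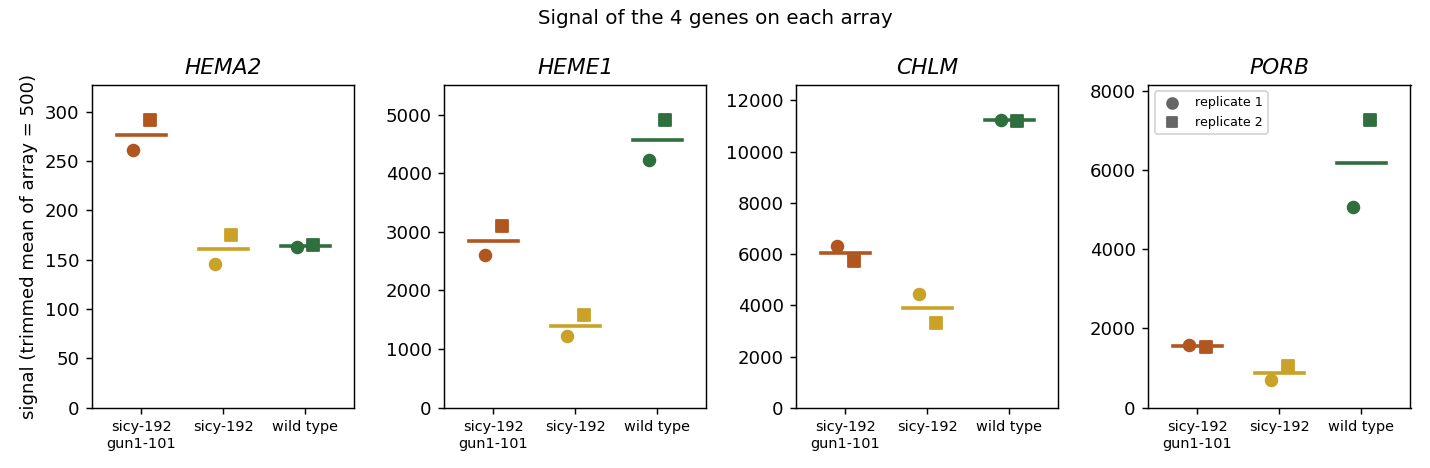
Signal of HEMA2, HEME1, CHLM and PORB on each array (vertical axes, linear, from 0, scaled so that the trimmed mean of an array is 500), with sicy-192 gun1-101, sicy-192 and wild type from left to right; circles are replicate 1, squares are replicate 2 and bars are means of 2 arrays. HEME1, CHLM and PORB are lowest in sicy-192 and highest in wild type, whereas HEMA2 is highest in sicy-192 gun1-101, at 261 and 292.

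Set side by side, HEME1, CHLM and PORB shared an order of genotypes. Over the means of 2 arrays, the difference between the double mutant and sicy-192 came to 60.1% of the log2 gap between sicy-192 and wild type for HEME1, 41.9% for CHLM and 29.9% for PORB. Within replicate 1 and replicate 2 arrays these shares were 60.8% and 59.3% for HEME1, 38.1% and 44.8% for CHLM and 40.5% and 19.1% for PORB, so HEME1 had the highest share in both, while the order of CHLM and PORB differed between the replicate numbers. On the linear scale, the double mutant had 62.3% of the wild-type mean signal of HEME1, 53.7% of that of CHLM and 25.2% of that of PORB. In sicy-192 these figures were 30.6%, 34.5% and 14.3%. HEME1 and CHLM are close in profile, with a root mean square distance of 0.31 on the log2 scale between their values over the 6 arrays, each centred on its own mean. PORB lay 0.58 from HEME1 and 0.64 from CHLM. HEMA2 lay 0.73 from HEME1, 0.76 from CHLM and 1.29 from PORB. All 3 comparisons share arrays, so their values are not independent of each other.

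In the double mutant both arrays of all 4 genes lay above both sicy-192 arrays, as did those of 27.6% of the tested probe sets. Both sicy-192 arrays lay below both wild-type arrays for 3 of the 4 genes, against 21.1% of the tested probe sets. For the double mutant against wild type, 3 genes lay below without overlap, against 28.9% of the tested probe sets, and HEMA2 lay above, against 37.9%. The genes were chosen with these values known, so nothing is read from the counts. Over all tested probe sets, the median log2 difference from wild type was 0.07 in the double mutant and 0.16 in sicy-192, and that between the mutants was -0.05 (double mutant minus sicy-192).

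**Figure D2:**
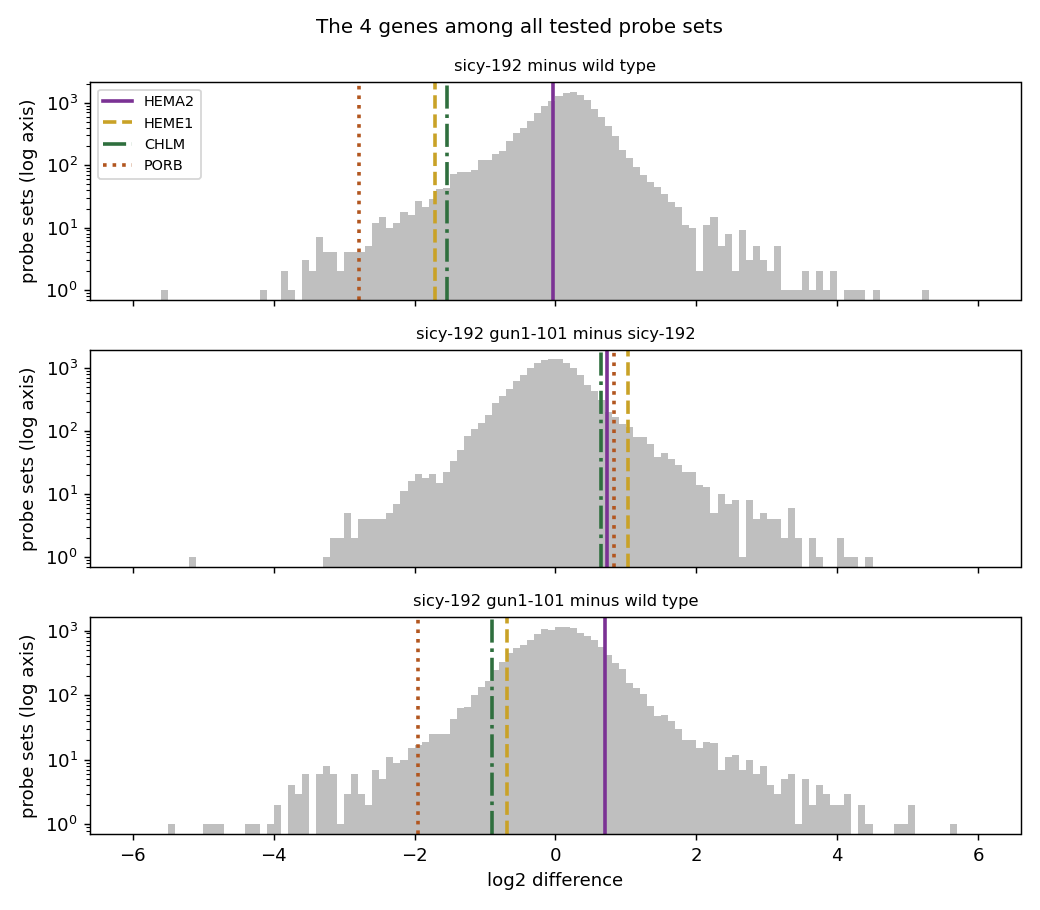
Histograms of the log2 difference of all 14785 tested probe sets (horizontal axis; number of probe sets on a log axis) in the 3 comparisons, with vertical lines for HEMA2, HEME1, CHLM and PORB. In sicy-192 minus wild type, PORB (-2.79), HEME1 (-1.71) and CHLM (-1.54) lie in the lower tail and HEMA2 (-0.03) near the centre; in sicy-192 gun1-101 minus sicy-192, all 4 lie between 0.65 and 1.03.

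The other enzyme genes of the pathway were mostly lower in both mutants than in wild type. Of the 51 enzyme genes listed, 14 have a named probe set, and the 37 others, HEMA1, GUN4 and PORA among them, were not analysed here. Of the 8 tested genes besides the 4, 5 fell and 0 rose in sicy-192 against wild type (limma, adjusted p under 0.05, against 9.21% of all tested probe sets called lower and 13.8% called higher), with a median log2 difference of -0.54. The count was 3 (CHLI2, AT1G74470 and HEME2) without sicy-192 replicate 1, sicy-192 replicate 2 or wild-type replicate 2. The magnesium chelatase subunit gene CHLI2 averaged 1277 ± 97.4 in sicy-192 and 2676 ± 225 in wild type (SD, n = 2 each), a log2 difference of -1.06 ± 0.16 (SE, adjusted p = 0.00156 in limma). The geranylgeranyl reductase gene AT1G74470, whose enzyme makes the phytyl tail of chlorophyll, fell by 0.96 ± 0.18 on the log2 scale (adjusted p = 0.00476 in limma). HEME2, the second uroporphyrinogen decarboxylase gene, averaged 3201 ± 577 in sicy-192 and 6082 ± 167 in wild type, a log2 difference of -0.93 ± 0.16 (adjusted p = 0.00341 in limma), beside -1.71 for HEME1.

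Of the early steps besides HEMA2, GSA1 and HEMB1 fell in sicy-192. GSA1, for the aminomutase that forms ALA, fell by 0.55 ± 0.13 (SE, adjusted p = 0.0152 in limma), and HEMB1, for ALA dehydratase, by 0.52 ± 0.14 (adjusted p = 0.0289 in limma). The call of GSA1 was lost without sicy-192 replicate 1, sicy-192 replicate 2 or wild-type replicate 2 (adjusted p up to 0.0823). That of HEMB1 was lost without any 1 of the 4 arrays compared, with quantile normalization, without the filter and without the variance trend (adjusted p up to 0.168). Not passing were SIRB, for the ferrochelatase of sirohaem synthesis (-0.40, adjusted p = 0.0663 in limma), NOL, for a chlorophyll b reductase (-0.34, adjusted p = 0.124), and hemf2, a coproporphyrinogen oxidase gene (0.30, adjusted p = 0.37). SIRB and NOL passed when the arrays were centred on their medians, which took the count to 7 of 8.

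Between the double mutant and sicy-192, the log2 differences of these 8 genes lay between -0.40 for hemf2 and 0.34 for AT1G74470, with a median of 0.08. Every enzyme gene called higher in this comparison is among the 4, so that no other was called higher follows from the choice, and the gap to the 0.65 to 1.03 of the 4 is not tested. Of the 8, 0 were called lower in limma, against 11.2% of all tested probe sets called lower. At that share few of 8 genes would be called, so nothing is read from this count. At an unadjusted p under 0.05 in limma, 0 were lower too, and no share of all probe sets is given at that threshold. HEME2 was at 3415 and 3910 in the double mutant and 2793 and 3609 in sicy-192, arrays that overlap, with a log2 difference of 0.20 ± 0.16 (SE), beside 1.03 for HEME1. CHLI2 was at 1065 and 1342 in the double mutant and 1208 and 1346 in sicy-192 (-0.09 ± 0.16). GSA1 (0.10) and HEMB1 (0.07) were near 0.

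Against wild type, 6 of the 8 genes fell in the double mutant and 0 rose (limma, adjusted p under 0.05, against 12.8% of all tested probe sets called lower and 17.3% called higher), with a median log2 difference of -0.50. CHLI2 (-1.15, adjusted p = 0.00108), HEME2 (-0.73, adjusted p = 0.00924) and AT1G74470 (-0.62, adjusted p = 0.0272) were followed by NOL (-0.55, adjusted p = 0.0221), GSA1 (-0.45, adjusted p = 0.0281) and HEMB1 (-0.45, adjusted p = 0.0402). The count was 1 without double mutant replicate 1, where CHLI2 alone passed, and 2 (CHLI2 and HEME2) without double mutant replicate 2 or without wild-type replicate 1. CHLI2 was called under all 18 alternatives (adjusted p at most 0.0119). HEMB1 lost its call under 10 of them, among them leaving out any 1 of the 6 arrays (adjusted p up to 0.202). The calls of AT1G74470, GSA1 and NOL were lost under 5, 5 and 3 alternatives (adjusted p up to 0.165, 0.124 and 0.125). The dim probe sets of HEMA3 (signals of 4.67 to 59.2 over the 6 arrays) and hemb2 (25.5 to 74.6) did not pass the filter and were not tested.

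**Figure D3:**
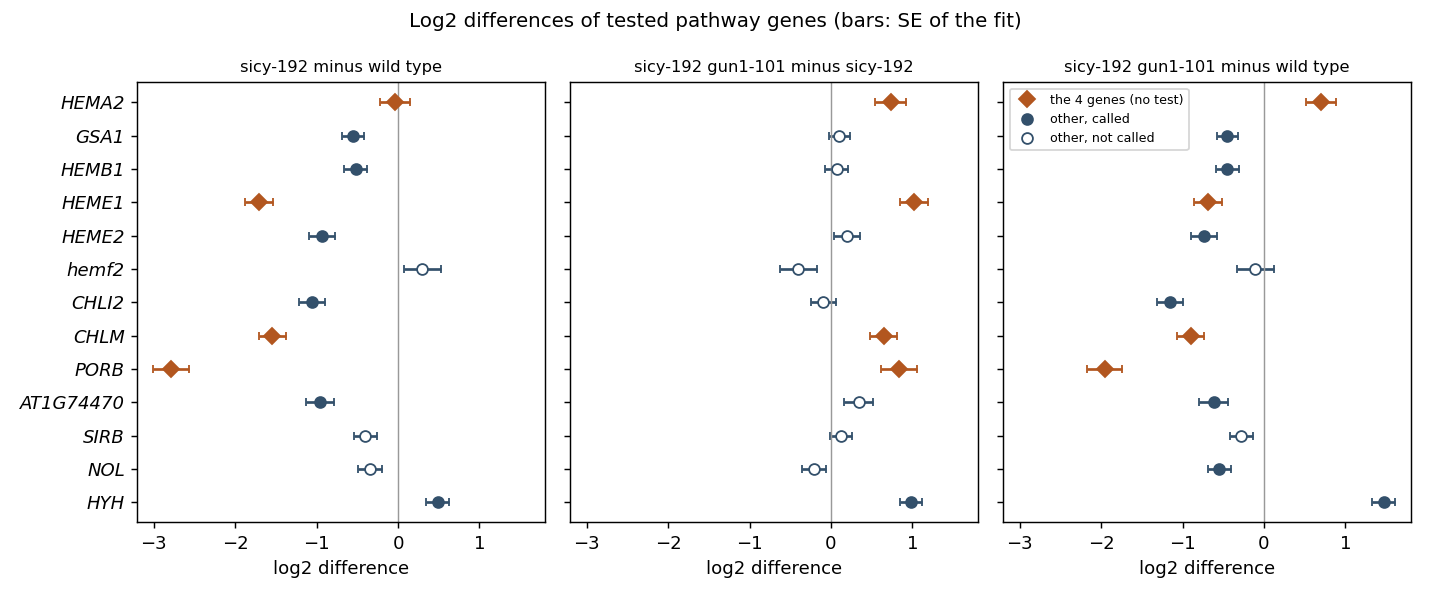
Log2 differences (horizontal axes) of the 12 tested enzyme genes, in rough order of the pathway from top to bottom, and of the regulator HYH, in the 3 comparisons. Diamonds are HEMA2, HEME1, CHLM and PORB (no test), filled circles are other genes called at an adjusted p under 0.05, open circles are those not called, and bars are the SE of the fit. In sicy-192 minus wild type the filled circles of enzyme genes lie between -1.06 and -0.52; in sicy-192 gun1-101 minus sicy-192, enzyme genes called higher are diamonds by the choice of the 4 genes.

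Of 13 regulators of the pathway listed, the gene table names a probe set for HYH only, which encodes a bZIP transcription factor related to HY5, a factor that promotes light-responsive genes. HYH had signals of 1485 and 1671 in the double mutant, 767 and 812 in sicy-192, and 545 and 572 in wild type. No genotypes overlapped, and the order differed from that of the chlorophyll genes, with wild type lowest. HYH rose in the double mutant against sicy-192 by 0.98 ± 0.14 (SE, adjusted p = 0.00162 in limma) and against wild type by 1.47 ± 0.14 (adjusted p = 0.000178 in limma). It also rose in sicy-192 against wild type, by 0.49 ± 0.14 (adjusted p = 0.0343 in limma). That last call was lost under 10 of 18 alternatives, among them leaving out any 1 of the 6 arrays, quantile normalization and centring the arrays on their medians (adjusted p up to 0.223).

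Genes with the profile most like each of the 4 were found by the same root mean square distance over the 6 arrays, among the 8012 other named genes tested. The nearest to HEMA2 were LPA66 (distance 0.04), a pentatricopeptide repeat protein gene, AT2G30150 (0.04) and SIZ1 (0.07), a SUMO ligase gene. HEME1 was nearest to THIC (0.04), for an enzyme of thiamine synthesis in the plastid, AT3G44020 (0.12) and PIFI (0.14). THIC averaged 922 in the double mutant, 442 in sicy-192 and 1519 in wild type. CHLM was nearest to AT2G38740 (0.10), AT1G52220 (0.11) and PSBW (0.13), for a small subunit of photosystem II, which averaged 8734 in the double mutant, 5663 in sicy-192 and 15173 in wild type. PORB had no neighbour as close: AT5G05250 lay at 0.18, AT5G02160 at 0.31 and AT4G27700 at 0.35. The profiles are centred but not scaled, so the distance depends on the size of differences as well as on their order. Of the 4, PORB had the largest difference between sicy-192 and wild type, so its distances are not read as a more singular profile. Between CHLM and HEME1 the distance was 0.31, and 102 other genes lay nearer to HEME1 than CHLM did.

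Markers of green cotyledon tissue had the same order of genotypes as HEME1, CHLM and PORB. The summed signal of LHCB4.1, LHCB4.2, RCA and PRK, the 4 of 8 listed markers with a named probe set, was 51963 to 67544 in the double mutant, 29192 to 38995 in sicy-192 and 86319 to 116024 in wild type. PRK, for the Calvin cycle enzyme phosphoribulokinase, averaged 8733 ± 351 in the double mutant, 3332 ± 516 in sicy-192 and 20249 ± 3521 in wild type (SD, n = 2 each). RCA had the same order of means, but its double mutant arrays (26088 and 18313) overlapped its wild-type arrays (36522 and 25162). In whole cotyledons, fewer green cells and less of these transcripts per cell cannot be told apart. Root markers were represented by 2 of 5: PYK10, a beta-glucosidase gene, lay between 16879 and 21943 on all 6 arrays, and EXPA7, a root hair gene, between 3.17 and 28.0. These 2 genes differ widely in signal, so no root content is read from them. The shoot apex marker CLV3 (1 of 3 with a named probe set) was at 12.8 or below on all arrays, and none of the 6 seed storage markers was analysed here. The guard cell factor gene FMA (1 of 2) was at 79.1 and 72.0 in the double mutant, 89.1 and 83.6 in sicy-192, and 159 and 145 in wild type. The part of these markers in the results was not tested.

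**Figure D4:**
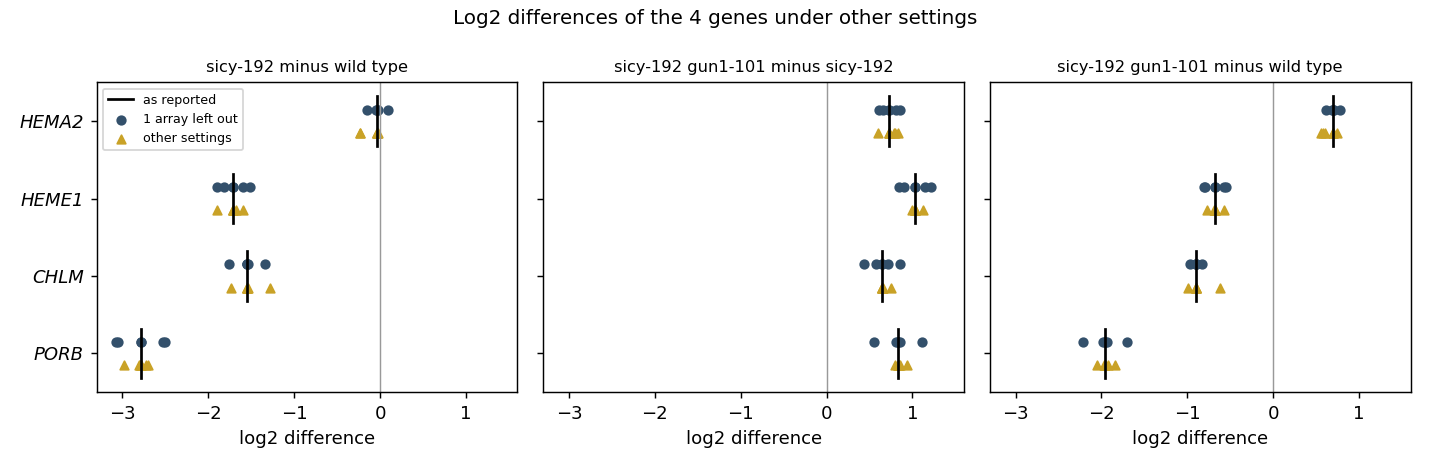
Log2 differences of HEMA2, HEME1, CHLM and PORB (horizontal axes) in the 3 comparisons as reported (vertical bars), with 1 array left out (circles) and under the other settings tried (triangles). HEMA2 lies on either side of 0 in sicy-192 minus wild type, from -0.24 to 0.09, and the double mutant minus sicy-192 differences of PORB span 0.55 to 1.11.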

How the data were processed

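Cotyledon RNA from 3 genotypes with 2 arrays each was measured, and the labels describe the samples of a genotype as biological replicates. Whether their plants were raised separately is not said, so p-values measure only the spread between these samples. The deposited table holds a linear intensity for each probe set. The submitters' processing notes name GCOS without a version, and the algorithm is not given in the sources used here. The values show that the deposited columns share a mean of 500 once 2% is trimmed from either end. No genome build is given, so no coordinates are stated, and no sequences were used.

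Of 22810 rows, 64 were controls. Of the other 22746 probe sets, GEO's platform annotation names 1 gene for 13513, more than 1 for 503 and none for 8730, and 13436 matched a RefSeq locus by Entrez identifier. After rescaling to exactly that trimmed mean, values were taken as log2(signal + 16). The 14785 probe sets with a mean log2 value above the 35th percentile were fitted with limma 3.58.1 in R 4.3.3 (eBayes with a variance trend, two-sided, all 6 arrays, 3 residual and 6.27 prior degrees of freedom), with Benjamini-Hochberg adjustment over all of them and a threshold of 0.05. The fit was tested on simulated data with independent noise on each array. In the simulation a small set of probe sets was changed, in sicy-192 alone, and all others had the same mean in every genotype. That does not test the fit where many probe sets differ or where same-numbered arrays share deviations, as in these data. The outcome is therefore not used as support. The small number of arrays limits the precision.

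The 4 genes, the lists and the settings were chosen with earlier results of these data known. Named genes are the 4, every tested gene of the pathway and regulator lists, and the 3 nearest profiles of each. Alternatives were other offsets, filters and scalings, no variance trend, only the arrays compared, the mean of a gene's probe sets, a block for the replicate number, calls at 0.10 and leaving out arrays in turn. The labels do not say that a replicate number marks a shared batch, so the fit reported has no block.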

Additional observations from a re-analysis of the deposited data

How the results depend on the processing

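For HEMA2, HEME1, CHLM and PORB, no alternative turned a difference round except for HEMA2 in sicy-192 against wild type, which ran from -0.24 with quantile normalization to 0.09 without sicy-192 replicate 1. CHLM in sicy-192 against wild type ran from -1.75 without sicy-192 replicate 1 to -1.29 with quantile normalization. Without 1 array, the count of the 8 other pathway genes called ran from 3 to 5 in sicy-192 against wild type and from 1 to 5 in the double mutant against wild type. The other settings gave 4 to 7 and 4 to 6 in the same order. For the double mutant against sicy-192 the count of genes called higher was set by the choice of the 4 genes, and its stability is not read. With the replicate block, SIRB and NOL also passed for sicy-192 against wild type, both lower, for a count of 7. In the comparison of the mutants the block gave a count of 1, as AT1G74470 passed as higher in the double mutant than in sicy-192 (adjusted p = 0.0372). Deviations of same-numbered arrays from their genotype means correlated at 0.33 to 0.44. A lone array left in a genotype was assumed to vary like the others. In sicy-192 against wild type, the median of all probe sets (0.16) moved to 0.05 under quantile normalization and to -0.03 when arrays were centred on their medians. Relative to that median, HEME1 was at -1.87 as reported and after centring, and at -1.65 under quantile normalization. Averaging a gene's probe sets changed no value of the 4 genes, which have 1 each.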
